A study of Homo sapiens with 6 samples.

Results

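The genes described here are the annotated long noncoding RNA genes that carry a LINC symbol followed by digits only, the symbol given to long intergenic non-protein-coding RNAs that have no better established name. They were found by matching the gene identifiers of the count table to GENCODE release 44, which gave 2242 LINC genes among 16780 genes of the lncRNA class and 60664 genes in all. These identifiers carry 2235 different symbols, since 7 symbols stand for more than 1 identifier. Another 25 genes with such a symbol belong to other classes, and 4 lncRNA genes have a LINC symbol that is not digits only. None of these was included.

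The study transfected U-2 OS cells, a human osteosarcoma line, with control siRNA (siControl, n = 3) or with siRNA against SFPQ (siSFPQ, n = 3), each at 30 nM, and sequenced polyadenylated RNA. All 6 libraries come from this 1 line, and the labels do not give the time between transfection and harvest. The replicates are described by the study as biological. How the cultures were kept apart is not stated, and p-values measure the spread between these libraries. The libraries held 43469321 to 47119203 counts.

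Most LINC RNAs are made by RNA polymerase II, capped, spliced and polyadenylated like messenger RNAs, but they are on the whole less abundant, less efficiently spliced and more often nuclear. Many are ended early by the Integrator or Restrictor complexes and degraded by the nuclear exosome. SFPQ is a nuclear RNA-binding protein of the DBHS family that works with NONO and PSPC1, builds paraspeckles on the lncRNA NEAT1, and is known to help RNA polymerase II transcribe long genes.

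With respect to protein-coding genes, the word intergenic holds for most, but not all, of these genes. The median LINC gene spanned 17.7 kb, introns included, had 3 exons in its canonical transcript and lay 52.3 kb from the nearest protein-coding gene. The spans ran from 0.32 kb to 1232.8 kb. However, 149 of the 2242 LINC genes overlapped a protein-coding gene, and 1121 overlapped another annotated gene of some kind, on either strand. The strand setting of the counting is not given in the sources used here, so reads from a LINC gene and from a gene that overlaps it cannot be told apart with certainty.

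Promoter windows, from 250 bases before to 50 bases after the RefSeq start on GRCh38.p14, were found for 1485 of the 2235 LINC symbols. The following 6 belong to 3 of the largest rises and 3 of the largest falls at 1 CPM or more. They are given so that the starts of genes described later can be compared. No window is shown for LINC02912, LINC01151, LINC02204 and LINC02832, which rose by more than the last of these rises. None is shown for LINC02152 and LINC01239, which fell by more than the last of these falls. LINC02912 and LINC01151 were left out of the choice whether or not a window was matched. For LINC02204, LINC02832, LINC02152 and LINC01239 no window was matched. Capitals mark TATAAA (the TATA box core), CCAAT (the CCAAT box) or GGGCGG (the GC box, bound by SP1) on either strand, each written along the sense strand of the gene.

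Of these, 3 rose in siSFPQ: LINC01778 (chr1:30824402-30824701, plus strand), LINC02846 (chr9:136109387-136109686, minus strand) and LINC03080 (chr15:99435162-99435461, minus strand).
LINC01778: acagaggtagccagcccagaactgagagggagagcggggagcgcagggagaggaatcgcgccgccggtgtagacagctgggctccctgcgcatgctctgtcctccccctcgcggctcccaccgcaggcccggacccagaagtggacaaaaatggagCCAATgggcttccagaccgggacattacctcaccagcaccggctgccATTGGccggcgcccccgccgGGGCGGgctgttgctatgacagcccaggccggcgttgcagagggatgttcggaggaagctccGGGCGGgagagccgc
LINC02846: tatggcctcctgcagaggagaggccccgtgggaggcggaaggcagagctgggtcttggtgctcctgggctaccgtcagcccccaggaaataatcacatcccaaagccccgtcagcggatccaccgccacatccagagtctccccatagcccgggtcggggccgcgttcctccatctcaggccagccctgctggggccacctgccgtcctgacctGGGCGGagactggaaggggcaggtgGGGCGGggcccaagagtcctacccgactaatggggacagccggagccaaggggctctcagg
LINC03080: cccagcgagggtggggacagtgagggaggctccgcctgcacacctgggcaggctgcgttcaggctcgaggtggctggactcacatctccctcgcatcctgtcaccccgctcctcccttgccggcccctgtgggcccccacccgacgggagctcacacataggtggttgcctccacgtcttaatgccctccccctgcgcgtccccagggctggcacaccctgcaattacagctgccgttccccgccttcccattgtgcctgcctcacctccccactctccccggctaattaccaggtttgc

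The other 3 fell: LINC03033 (chr14:61570290-61570589, plus strand), LINC00299 (chr2:8328370-8328669, minus strand) and LINC01695 (chr21:28228618-28228917, minus strand).
LINC03033: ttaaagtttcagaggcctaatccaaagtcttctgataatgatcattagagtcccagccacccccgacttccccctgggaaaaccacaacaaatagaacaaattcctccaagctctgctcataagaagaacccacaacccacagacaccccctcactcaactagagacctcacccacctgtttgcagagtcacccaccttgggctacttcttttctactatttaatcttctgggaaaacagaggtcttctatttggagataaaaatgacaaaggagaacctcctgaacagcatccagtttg
LINC00299: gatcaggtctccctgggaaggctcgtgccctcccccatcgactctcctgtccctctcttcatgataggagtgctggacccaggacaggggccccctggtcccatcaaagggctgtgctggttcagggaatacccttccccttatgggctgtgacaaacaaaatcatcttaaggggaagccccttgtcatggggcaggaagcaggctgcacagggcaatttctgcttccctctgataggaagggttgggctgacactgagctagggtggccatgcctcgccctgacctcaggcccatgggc
LINC01695: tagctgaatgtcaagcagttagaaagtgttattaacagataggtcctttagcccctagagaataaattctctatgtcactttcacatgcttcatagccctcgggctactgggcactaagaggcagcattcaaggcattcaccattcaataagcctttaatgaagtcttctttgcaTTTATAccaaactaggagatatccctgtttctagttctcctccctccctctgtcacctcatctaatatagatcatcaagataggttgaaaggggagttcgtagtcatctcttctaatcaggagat

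The windows of LINC01778, LINC02846 and LINC03080 held 68.3%, 67.3% and 66.7% G or C, while those of LINC03033, LINC00299 and LINC01695 held 45%, 59.3% and 41.0%. GC boxes stood in the windows of LINC01778 and LINC02846, with 2 matches each, and in none of the 3 that fell, a difference between 6 windows only. LINC01778 also had 2 CCAAT boxes, and LINC01695 had 1 TATA box core. The starts in RefSeq and in GENCODE were the same base for LINC03033 and LINC01695 and differed by 12, 51 and 435 bases for LINC02846, LINC03080 and LINC01778. For LINC00299 the RefSeq start lay 3789 bases upstream, so its window may not be the start used in these cells.

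Across all 35116 promoter windows, 45% held GGGCGG, 34.6% held CCAAT and 11.5% held TATAAA. Among the LINC genes the share with GGGCGG was 17.8%, and the median G or C content was 47.7% against 58.7% over all windows. Of the 51 windows matched to LINC genes called higher in siSFPQ, 11 held GGGCGG (21.6%) and 6 held TATAAA (11.8%). Of the 47 windows of LINC genes called lower, 5 held GGGCGG (10.6%) and 11 held TATAAA (23.4%), and among 490 that were called neither way the shares were 28.0% and 14.9%. CCAAT was found in 43.1%, 36.2% and 36.9% of these windows. Another motif, GAAA followed by any 2 bases and GAAA, the core of the interferon-stimulated response element, stood in 3.57% of all windows and in 1 of the 51 and 2 of the 47. Motifs were counted whether or not they overlapped each other, and a match describes letters in the window only.

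LINC RNAs made up a small share of each library. They took 0.246%, 0.253% and 0.246% of the counts in siControl replicates 1, 2 and 3 and 0.236%, 0.232% and 0.229% in siSFPQ replicates 1, 2 and 3. The groups did not overlap, but this rested on 2 genes: without LINC03033 and LINC01176 the shares lay between 0.231% and 0.232% in siControl and between 0.228% and 0.235% in siSFPQ. Of the 2242 LINC genes, 734 had no count in any library and 600 had 1 to 9 counts in all. Levels are given in CPM (counts per 1000000 counts of the normalized library). At these depths 3 counts, taken as the floor, correspond to 0.0637 to 0.069 per 1000000 counts of the library before normalization. Lower levels were not detectable, and this limit covers counting error only. siControl replicate 1 had a count for 892 LINC genes, fewer than the 1034 to 1081 in the other libraries, although between 496 and 527 reached 10 counts in every library.

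The remaining 908 LINC genes, 40.5% of the total, had at least 10 counts over the libraries and were tested. The median tested LINC gene stood at 0.294 CPM, while the median protein-coding gene stood at 18.7 CPM. Per kb of exon the medians were 0.118 and 3.31 CPM. Counts were concentrated on few genes: the 254 LINC genes at 1 CPM or more carried 92.9% of LINC counts, and the 10 most counted carried 30.9%.

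The knock-down was visible in each library. SFPQ had 22380.7, 23138.8 and 21811.2 normalized counts in siControl replicates 1, 2 and 3, and 3238.5, 3780.1 and 3108.0 in siSFPQ. Its log2 fold change was -2.73 ± 0.05 (SE, edgeR quasi-likelihood test, Benjamini-Hochberg adjusted p = 6.34e-30). PSPC1 rose by 1.13 and NEAT1 by 0.42 on the log2 scale (edgeR adjusted p = 2.28e-21 and 6.51e-07), while NONO had a log2 fold change of 0.03 (edgeR adjusted p = 0.504). Of the lineage markers, COL1A1, SPARC, VIM and FN1 all stood at 923.3 CPM or more in each library and RUNX2 stood between 55.7 and 61.4 CPM, whereas COL1A2, the partner chain of type I collagen, stood between 0.679 and 1.19 CPM and ALPL between 2.89 and 4.2 CPM. Among markers of other cell types, EPCAM reached at most 5.64 CPM, and CDH1, PTPRC, PECAM1 and GFAP at most 2.68 CPM. ALB was between 0 and 0.0451 CPM.

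SFPQ depletion was accompanied by changes of LINC genes in both directions. Calls needed a log2 fold change beyond 1.5 in either direction and an adjusted p under 0.05. By the edgeR quasi-likelihood test, 70 LINC genes were called higher and 74 lower in siSFPQ. In bulk RNA, fewer cells that express a gene and less of its RNA per cell cannot be told apart. Those called higher were 7.71% of the LINC genes tested and those called lower 8.15%. Over all 29022 genes tested, 5.54% were called higher and 4.77% lower. At any size of change, adjusted p values under 0.05 were found for 166 LINC genes that rose and 161 that fell, where over all genes 22.4% rose and 22.1% fell. For 428 of the 908 LINC genes the normalized counts did not overlap between the conditions, against 52.3% of all genes tested. The median log2 fold change was 0.04 over the LINC genes and 0.02 over all genes.

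Many of the calls rested on few reads. Of the 70 called higher, 29 had at most 3 counts in every siControl library, and of the 74 called lower, 38 had at most 3 counts in every siSFPQ library. Taken as lower bounds against 3 counts, only 9 of the former and 20 of the latter still passed the 1.5 limit. With each such gene set to its bound the median over LINC genes was 0.00.

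**Figure D1:**
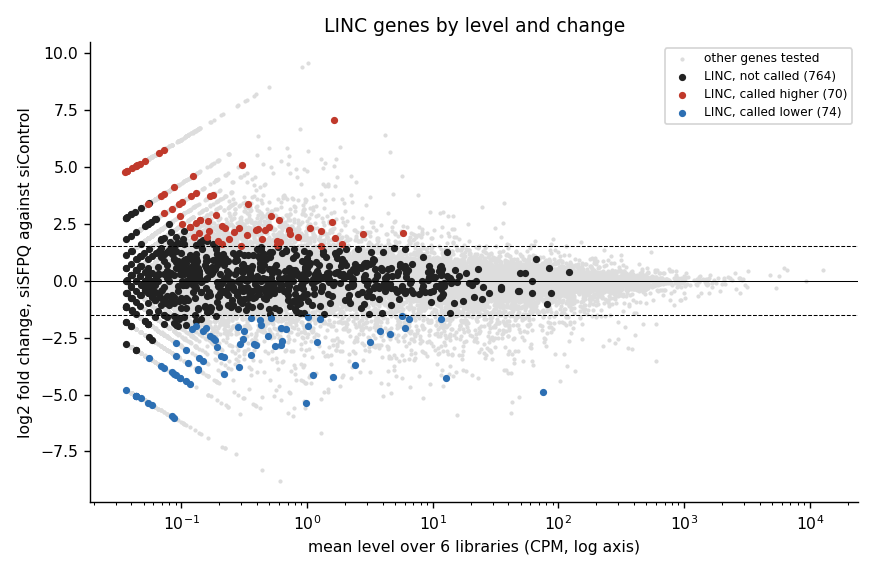
Log2 fold change in siSFPQ against siControl (vertical axis) by mean level over the 6 libraries in CPM (horizontal log axis). Each point is 1 gene: grey, other genes tested; black, LINC genes not called; red, the 70 called higher; blue, the 74 called lower; dashed lines mark 1.5 and -1.5. Most called LINC genes lie below 1 CPM, and LINC03033 stands alone at the lower right at 75.2 CPM.

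The level set how much could be seen. Under 0.1 CPM, 241 LINC genes were tested, of which 19 were called higher and 20 lower, each with at most 3 counts in every library of the lower condition. The median standard error of the log2 fold change was 1.17 in this range, 0.514 between 0.1 and 1 CPM and 0.14 at 1 CPM or more. Over all genes under 0.1 CPM, 7.94% were called higher and 4.33% lower. The LINC share called higher (7.88%) was at this background, while the LINC share called lower (8.3%) was above it. Between 0.1 and 1 CPM, 42 were called higher and 38 lower of 413 (10.2% and 9.2%), against 11.1% and 6.17% of all genes in this range. At 1 CPM or more, 9 were called higher and 16 lower of 254. Over all 15641 genes at this level, 1.77% were called higher and 4.15% lower.

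With the adjusted p alone as the limit, 79 of these 254 LINC genes rose and 82 fell, and 109 of these changes stayed within a log2 fold change of 1 either way. Over all genes at this level 30.1% rose and 34.5% fell, so LINC genes passed the test about as often as genes at large. The conditions did not overlap for 182 of the 254, where they did not overlap for 69.6% of all genes at this level. Their median log2 fold change was 0.01, and those of single libraries against the siControl mean were 0.05, 0.01 and 0.05 in siSFPQ replicates 1, 2 and 3.

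LINC genes of long span were lower more often than higher. Among the 96 tested LINC genes that spanned 200 kb or more, 19 were called lower and 4 higher, with a median log2 fold change of -0.68. By the adjusted p alone, 39 fell and 10 rose. By contrast, 25 were called higher and 13 lower among 299 under 10 kb, with a median of 0.19, and 25 higher and 19 lower among 300 between 10 and 50 kb, with a median of 0.23. Between 50 and 200 kb, 16 were called higher and 23 lower of 213, with a median of -0.12. Over all genes, 7.89% were called higher and 2.99% lower under 10 kb, 4.79% and 2.12% between 10 and 50 kb, and 2.99% and 6.07% between 50 and 200 kb.

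Protein-coding genes and other lncRNA genes also stood lowest at the longest spans. Over all 1791 genes that spanned 200 kb or more, 26.1% were called lower and 1.9% higher. For the 1417 protein-coding genes among them the median log2 fold change was -0.79, with 403 called lower and 19 higher. The 265 other lncRNA genes of this span had a median of -0.35, with 44 called lower and 11 higher. Whether the LINC genes differ from either class at equal span was not tested. Most long LINC genes overlap other genes, and only 8 of the 96 did not: of these 8, 7 fell and 3 were called lower, with a median of -1.08.

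The shift of long LINC genes was also present where levels were higher. At 1 CPM or more, 31 LINC genes spanned 200 kb or more, of which 19 fell and 5 rose (adjusted p under 0.05), with 6 called lower and 1 higher. Of all 1238 genes of this span and level, 927 fell and 147 rose, with 28.0% called lower and 0.808% higher. The median of the 31 LINC genes against the siControl mean was -0.45, -0.46 and -0.71 log2 units in siSFPQ replicates 1, 2 and 3, and -0.02, 0.01 and 0.01 in siControl. All 3 siSFPQ libraries therefore lay below all 3 siControl libraries. In the LINC genes between 10 and 50 kb (84 genes) the same medians were 0.23, 0.21 and 0.13 in siSFPQ and 0.03, 0.00 and 0.00 in siControl.

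**Figure D2:**
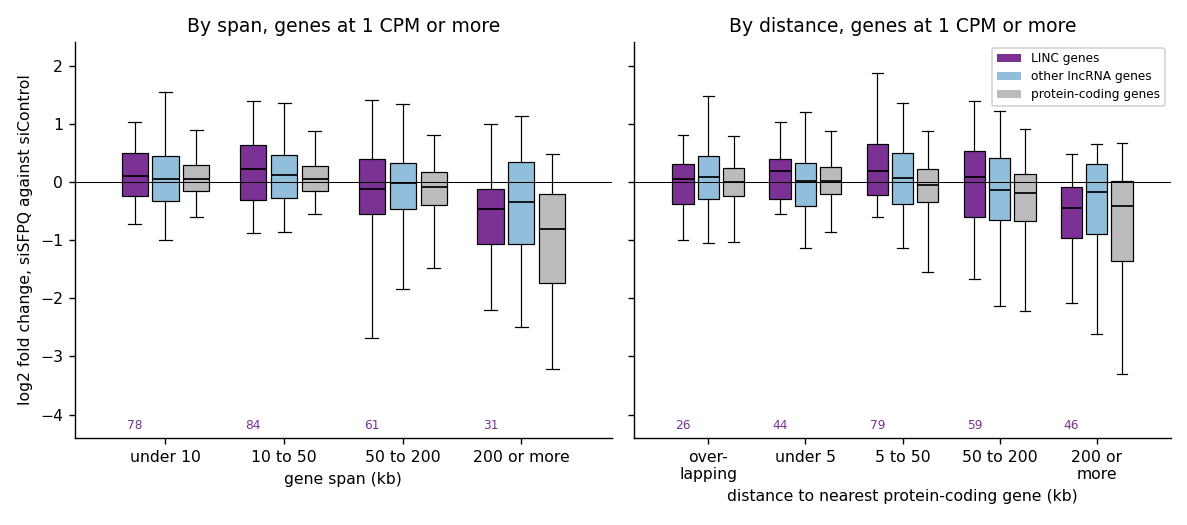
Log2 fold change in siSFPQ against siControl for genes at 1 CPM or more, by gene span (left) and by distance to the nearest protein-coding gene (right), both in kb. Boxes span the interquartile range of the genes with the median as a line, and whiskers run from the 5th to the 95th percentile; purple, LINC genes, with their number below; blue, other lncRNA genes; grey, protein-coding genes. All 3 classes sit lowest at spans of 200 kb or more, where the LINC median is -0.47.

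The summed level of LINC RNAs moved by span in the same way. LINC genes of 200 kb or more added up to 290.5, 297.9 and 294.4 CPM in siControl and to 207.7, 208.5 and 200.9 CPM in siSFPQ. Those between 50 and 200 kb added up to 804.5, 849.3 and 828.4 CPM in siControl and to 584.2, 589.7 and 572.7 CPM in siSFPQ. LINC03033 alone made up much of this gap, and without it the sums were 660.8 to 706.6 CPM and 568.6 to 583.8 CPM. Those under 50 kb added up to 1382.0, 1445.3 and 1397.2 CPM in siControl and to 1509.9, 1456.3 and 1467.1 CPM in siSFPQ. The groups did not overlap in any of these sums.

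**Figure D3:**
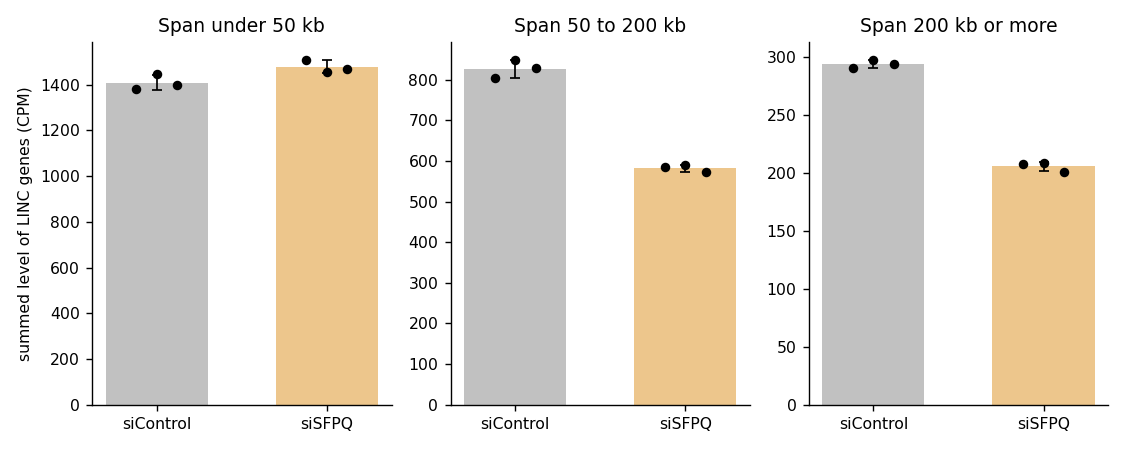
Summed level of LINC genes in CPM (vertical axis, from 0) in siControl and siSFPQ, in 3 classes of gene span. Points are libraries, bars their mean and error bars the SD (n = 3). The siSFPQ libraries lie below all siControl libraries in both longer classes and above them in the class under 50 kb.

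Exon length went with smaller differences than span did. Over the 227 tested LINC genes with the largest spans (81.8 kb or more) the median log2 fold change was -0.33, with 40 called lower and 12 higher. Over the 227 with the longest exons (5143.5 bases or more in all), the median was 0.02, with 24 called lower and 16 higher. Shares over all genes were not taken at these limits, so these counts have no direct background. By span, 6.07% of all genes were called lower and 2.99% higher at 50 to 200 kb. At 200 kb or more, 26.1% were called lower and 1.9% higher. LINC genes called lower had a median span of 89.0 kb, those called higher 16.8 kb and those called neither way 20.9 kb, while their median exon lengths were 3295.5, 2641.5 and 2891.0 bases. Transcripts with 4 or more exons were called lower in 54 and higher in 28 of 454 LINC genes, those with 2 or 3 exons in 17 and 36 of 403, and those with a single exon in 3 and 6 of 51. Over all genes the shares leaned the same way, with 5.58% called lower and 3.38% higher at 4 or more exons, 4.32% and 9.38% at 2 or 3, and 2.93% and 7.55% at a single exon.

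LINC genes far from protein-coding genes were also lower more often than higher. Of 150 LINC genes that lay 200 kb or more from any protein-coding gene, 44 fell and 11 rose (adjusted p under 0.05), with 18 called lower and 5 higher and a median log2 fold change of -0.40. Over all 1275 genes this far from a coding gene, 15.5% were called lower and 3.53% higher. Between 50 and 200 kb from a coding gene, 29 LINC genes were called lower and 20 higher of 226, where 10.1% and 4.68% of all genes were. At 5 to 50 kb from a coding gene, 32 LINC genes were called higher and 20 lower of 314, with a median of 0.26. Of 134 at under 5 kb, 4 were called higher and 5 lower, and of 84 that overlapped a coding gene, 9 and 2. Over all genes, 5.2% were called higher and 5.29% lower at 5 to 50 kb. The shares were 3.34% and 2.41% at under 5 kb, and 7.29% and 3.34% where they overlapped a coding gene. These calls include genes near the floor. At 1 CPM or more, 0 LINC genes were called higher and 2 lower of 26 that overlapped a coding gene. At 5 to 50 kb, 7 were called higher and 1 lower of 79. All genes at this level were called higher in 1.77% and lower in 2.76% where they overlapped, and in 2.1% and 4.93% at 5 to 50 kb.

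Span and distance are linked in the annotation, so they were also read together. Among LINC genes under 50 kb, the median log2 fold change was 0.29 for 529 genes within 200 kb of a coding gene and -0.23 for 70 genes farther away. Among those of 50 kb or more, it was -0.16 for 229 nearer genes and -0.56 for 80 farther genes. At 1 CPM or more the last group held 30 genes, of which 22 fell, 2 rose and 6 were called lower, with a median of -0.71. By edgeR 0 of these 30 were called higher, with 2 that rose at an unadjusted p under 0.05, and DESeq2 also called 0 higher and 6 lower. Genes of any class and span at this level that lay 200 kb or more from a coding gene numbered 495. Of these, 272 fell, 80 rose, 17.4% were called lower and 0.404% higher. By span alone, all genes at this level were called lower in 5.16% at 50 to 200 kb and 28.0% at 200 kb or more. The split by both was made for LINC genes only.

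The position relative to the nearest coding gene also varied. LINC genes on the same strand and downstream of their nearest coding gene were called lower in 36 and higher in 18 of 280 cases, with a median of -0.13. Those that converged on it were called lower in 7 and higher in 14 of 136, with a median of 0.23. Divergent LINC genes, which start toward the coding gene and run away from it, were called lower in 17 and higher in 19 of 234. Over all genes, 6.55% were called lower and 5.25% higher in the downstream position, 6.43% and 4.49% in the convergent and 4.52% and 3.64% in the divergent. These calls include genes near the floor. At 1 CPM or more the downstream LINC genes had 9 called lower and 5 higher of 97, with a median of -0.10, and the convergent had 2 called lower and 3 higher of 40, with a median of 0.09. All genes at this level in the downstream position were called lower in 4.79% and higher in 2.24%, and convergent ones in 6.03% and 1.89%.

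LINC genes and their nearest coding genes moved together to a limited extent. Over 225 LINC genes at 1 CPM or more whose nearest coding gene was tested, the rank correlation of the log2 fold changes was 0.34 across genes, which share libraries and are not independent. Both rose (adjusted p under 0.05) in 18 pairs and both fell in 49, while the LINC gene rose and its neighbour fell in 28 and the reverse in 9. At 200 kb or more the rank correlation was 0.45 over 38 pairs, with 17 where both fell and 2 where both rose. At under 5 kb it was -0.02 over 43 pairs. Among protein-coding genes and their next coding gene the rank correlation was 0.10 over 11422 pairs. Both rose in 1187 of these pairs and both fell in 1465. The first rose and the next fell in 963, and the reverse was seen in 1082. Where they lay 200 kb or more apart, both fell in 95 and both rose in 9 of 252 pairs, with a rank correlation of 0.10.

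The fall of LINC03033 was the largest among LINC genes at 1 CPM or more. LINC03033 spans 88.3 kb on the plus strand (chr14:61570405-61658696) with 5 exons in its canonical transcript, and stood between 49.9 and 52.5 CPM per kb of exon in siControl and between 1.43 and 2.03 in siSFPQ. It had 6572.5, 6532.0 and 6867.3 normalized counts in siControl and 223.8, 266.2 and 187.4 in siSFPQ. The conditions lay 29.5-fold apart, with a log2 fold change of -4.88 ± 0.07 (SE, edgeR quasi-likelihood adjusted p = 5.34e-33). The protein-coding gene annotated across it on the same strand, ENSG00000258989, had no count in any library, while LINC01303, which overlaps it on the opposite strand, rose by 0.95 on the log2 scale (edgeR adjusted p = 7.87e-07).

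A group of LINC genes was reduced to a few counts. LINC00299, a 499.6 kb gene on chromosome 2 near ID2, had 149.3, 128.0 and 141.4 normalized counts in siControl and 10.3, 6.85 and 4.93 in siSFPQ. ID2, an inhibitor of helix-loop-helix transcription factors that lies 190.6 kb away, fell by 0.72 on the log2 scale (edgeR adjusted p = 1.22e-08). LINC01239 (178.0 kb, chromosome 9, downstream of DMRTA1) had 237.5, 189.0 and 184.5 normalized counts in siControl and 11.3, 26.4 and 8.88 in siSFPQ. The log2 fold changes were -4.23 ± 0.27 for LINC00299 and -3.69 ± 0.24 for LINC01239 (SE, edgeR adjusted p = 3.97e-15 and 4.69e-15), and no siSFPQ library reached a siControl library in either.

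Short genes were among those that fell too. LINC02152 is a single exon of 1.28 kb on chromosome 16 (chr16:8298492-8299772). It had 89.2, 92 and 109.3 normalized counts in siControl and 8.25, 2.94 and 4.93 in siSFPQ, a log2 fold change of -4.15 ± 0.32 (SE, edgeR adjusted p = 6.27e-13). Its nearest coding gene, TMEM114, lay 237.8 kb away and did not pass the test (log2 fold change -0.71, edgeR adjusted p = 0.429).

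LINC01695 (112.6 kb, chromosome 21) had 95.2, 104.0 and 85.2 normalized counts in siControl and 17.5, 13.7 and 11.8 in siSFPQ. LINC00639 (210.1 kb, chromosome 14) had 320.6, 408.0 and 328.9 in siControl and 65, 59.7 and 83.8 in siSFPQ. Their log2 fold changes were -2.72 ± 0.26 and -2.34 ± 0.14 (SE, edgeR adjusted p = 9.34e-11 and 1.25e-15). Their nearest coding genes changed less: N6AMT1, a methyltransferase, by -0.41, and SEC23A, a coat protein of vesicles that leave the endoplasmic reticulum, by -0.14.

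At 1 CPM or more, 87 LINC genes lay downstream of a tested coding gene on the same strand. Both genes fell (adjusted p under 0.05) in 23 of these pairs and both rose in 11. The LINC gene rose and its neighbour fell in 9, and the reverse was seen in 6. LINC03077 (441.4 kb, chromosome X) had 300.6, 284.0 and 280.7 normalized counts in siControl and 61.9, 64.6 and 60.2 in siSFPQ, a log2 fold change of -2.21 ± 0.14 (SE, edgeR adjusted p = 2.18e-15). DIAPH2, a formin that builds actin filaments, ends 845.7 kb upstream of it and itself spans 920.3 kb, and its log2 fold change was -2.45. LINC02328 (250.1 kb, chromosome 14) changed by -1.98 and FLRT2, a cell adhesion protein 257.0 kb from it, by -2.90 (edgeR adjusted p = 2.85e-07 and 8.69e-27). These 2 of the 23 pairs were picked out after their values were seen.

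LINC00623, on chromosome 1 near the centromere, had 240.5, 290.0 and 227.6 normalized counts in siControl and 37.1, 40.1 and 40.4 in siSFPQ, a log2 fold change of -2.68 ± 0.16 (SE, edgeR adjusted p = 1.19e-15). Its longest transcript was 100% covered by stretches of at least 200 bases at 98% identity or more in transcripts of 6 genes elsewhere, LINC01138 among them, so how the counting assigned its reads is uncertain. It was the only one of 43 LINC genes checked that had such a match.

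The remaining LINC genes called lower at 1 CPM or more without overlap between the conditions were LINC01446, LINC01505, LINC02663, LINC02506, LINC03059 and LINC02331, with log2 fold changes from -2.08 to -1.55. LINC02331 was short of the limit without siControl replicate 3 (-1.47) or siSFPQ replicate 1 (-1.49). LINC02506 (231.2 kb, chromosome 4) had 794.5, 868.0 and 776.1 normalized counts in siControl and 254.7, 275.9 and 238.7 in siSFPQ. Its neighbour PCDH7, a protocadherin 850.6 kb upstream, went the other way, with a log2 fold change of 1.28 (edgeR adjusted p = 1.06e-19). Chromosome 14 held 5 of the 16 LINC genes called lower at 1 CPM or more (LINC03033, LINC00639, LINC02328, LINC03059 and LINC02331) among 21 measured there, a count noticed after the values were seen.

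LINC01176 was the one called gene at 1 CPM or more whose conditions overlapped. It had 171.3, 3126.0 and 46.1 normalized counts in siControl replicates 1, 2 and 3 and 53.6, 69.5 and 50.3 in siSFPQ. A single library carried the difference, and without siControl replicate 2 the log2 fold change went from -4.26 to -0.91 and was no longer a call.

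LINC02912 rose the most among LINC genes at 1 CPM or more. It is a single exon of 2.17 kb (chr8:127946559-127948723, minus strand), 203.6 kb from MYC. It had 0, 2.0 and 1.0 normalized counts in siControl and 144.4, 154.6 and 145.0 in siSFPQ, at least 49.3-fold higher against 3 counts per library (edgeR adjusted p = 4.06e-17). It lies within PVT1, a lncRNA on the opposite strand at 64.9 CPM, which rose by 1.76 on the log2 scale (edgeR adjusted p = 2.07e-25), and MYC, the growth-promoting transcription factor, rose by 0.57 (edgeR adjusted p = 5.45e-12). The share of PVT1 reads in the counts of LINC02912 was not tested.

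The other rises at this level started from detectable siControl levels. LINC01151 (248.6 kb, chromosome 8) had 18, 30.0 and 15 normalized counts in siControl and 127.9, 132.1 and 112.4 in siSFPQ, a log2 fold change of 2.55 ± 0.24 (SE, edgeR adjusted p = 4.48e-11). It is the 1 gene of 200 kb or more at this level that was called higher. ZHX2, a zinc finger and homeobox repressor that starts 47.9 kb away on the opposite strand, changed by -2.51 (edgeR adjusted p = 4.53e-22), with 1005.9, 967.0 and 1029.7 normalized counts in siControl and 169.1, 161.5 and 196.3 in siSFPQ.

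LINC02204 (15.6 kb, chromosome 15) had 16 normalized counts in each siControl library and 77.4, 92 and 70.0 in siSFPQ. LINC01778 (10.6 kb, chromosome 1), whose GC-rich start is shown above, had 12, 35 and 17 in siControl and 124.8, 89.0 and 76.9 in siSFPQ. Both rose, with log2 fold changes of 2.31 ± 0.26 and 2.17 ± 0.28 (SE, edgeR adjusted p = 5.36e-09 and 7.02e-08), and in both the lowest siSFPQ library was well above the highest siControl library.

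LINC02846 is 1.62 kb long and lies 5.16 kb downstream of TMEM250 on the same strand. It had 100.2, 90.0 and 115.3 normalized counts in siControl and 461.0, 377.7 and 454.7 in siSFPQ, a log2 fold change of 2.08 ± 0.12 (SE, edgeR adjusted p = 5.89e-16). TMEM250 had 2014.8, 1974.0 and 1945.2 normalized counts in siControl and 3821.2, 3707.6 and 3891.1 in siSFPQ, and rose by 0.94 on the log2 scale (edgeR adjusted p = 6.06e-19). Whether reads running on from TMEM250 contribute to LINC02846 was not tested.

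LINC02832 (52.6 kb, chromosome 2) had 36.1, 60.0 and 53.1 normalized counts in siControl and 221.7, 197.7 and 198.3 in siSFPQ. LINC03080 (11.4 kb in a single exon, chromosome 15) had 26, 39 and 32.1 in siControl and 130.0, 97.9 and 129.2 in siSFPQ, and LINC01968 (117.9 kb, chromosome 3) had 41.1, 57 and 32.1 in siControl and 107.3, 140.9 and 144.0 in siSFPQ. The log2 fold changes were 2.05, 1.87 and 1.59, without overlap between the conditions. LINC02073 was just past the limit, with a log2 fold change of 1.5 (edgeR adjusted p = 1.5e-06). Leaving out 1 library took the last 2 below it: LINC01968 stood at 1.41 without siControl replicate 3, and LINC02073 at 1.35 without siControl replicate 2 and 1.42 without siSFPQ replicate 3.

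Among LINC genes with at most 3 counts in every library of a condition, some differences were clear even as bounds. LINC02665 on chromosome 10 had 0, 0 and 2.01 normalized counts in siControl and 32, 16.6 and 32.5 in siSFPQ, at least 9.02-fold higher. LINC00482 was at least 5.13-fold higher. In the other direction LINC01163, 54.6 kb from the proliferation marker MKI67, had 103.2, 65 and 95.3 in siControl and 3.09, 0.979 and 1.97 in siSFPQ, at least 29.3-fold lower. LINC00310 and LINC02126 were at least 8.24-fold and 6.34-fold lower, and the coding genes next to them, MRPS6 of the mitochondrial ribosome and the cadherin gene CDH11, fell by 1.96 and 2.14 on the log2 scale.

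By mean CPM per kb of exon over the 6 libraries, the most abundant LINC RNAs were LINC00973 (68.6), LINC03033 (26.3), LINC01711 (22.2), LINC03061 (17.3), LINC00452 (17) and LINC00862 (15.4). The place of LINC03033 holds for neither condition. In siControl its libraries overlapped those of LINC00973, which stood between 42.0 and 51.8 CPM per kb there, and in siSFPQ it was below all of the other 5. Those 5 were not called. LINC00973, with 2018.9, 1850.0 and 2280.1 normalized counts in siControl and 3990.4, 3876.9 and 4090.4 in siSFPQ, rose by 0.96 ± 0.05 on the log2 scale (SE, edgeR adjusted p = 6.77e-17). LINC00862 rose by 0.34, while LINC01711, LINC03061 and LINC00452 had log2 fold changes of -0.73, -0.54 and -0.55, all past an adjusted p of 0.05 and short of a call. In that order LINC03061 and LINC00452 did not differ beyond their spread, with 13.5 to 22.1 CPM per kb over the libraries for LINC03061 and 12.5 to 20.8 for LINC00452.

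The 4 longest LINC genes at 1 CPM or more did not all move one way. LINC02055, at 1232.8 kb the longest of all LINC genes, had 951.8, 875.0 and 857.3 normalized counts in siControl and 453.8, 447.2 and 440.9 in siSFPQ, and fell by 1.00 ± 0.08 on the log2 scale (SE, edgeR adjusted p = 3.32e-13). LINC01505 (747.6 kb) and LINC01036 (617.0 kb) had log2 fold changes of -1.68 and -0.77 (edgeR adjusted p = 1.3e-14 and 1.16e-09). LINC01322 (639.6 kb), which overlaps BCHE on the opposite strand, had 88.2, 97 and 117.3 normalized counts in siControl and 176.4, 127.2 and 137.1 in siSFPQ and rose by 0.54 (edgeR adjusted p = 0.00617), though without siSFPQ replicate 1 its log2 fold change was 0.40 and did not pass.

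LINC genes with published roles in tumour cells were read as a list from general knowledge. Of 25 listed, 23 were found under that symbol and 22 were tested, of which 10 rose and 6 fell (adjusted p under 0.05), with 2 called higher and 1 lower. Over all genes tested 22.4% rose and 22.1% fell, and 5.54% were called higher and 4.77% lower. Of the 22 listed genes tested, 16 stood at 1 CPM or more, and over all genes at that level 30.1% rose and 34.5% fell. LINC00472 and LINC01133, the 2 called higher, stood at only 0.195 and 0.131 CPM. The list's median log2 fold change was 0.22, against 0.02 over all genes. At 1 CPM or more the largest rises were LINC01234 (0.71), LINC00520 (0.63) and LINC00460 (0.60), and the largest falls LINC00623 (-2.68), LINC00662 (-1.03) and LINC01116 (-0.50), each a log2 fold change past an adjusted p of 0.05. LINC00662, the most counted of these 6, had 4674.9, 5428.0 and 4884.0 normalized counts in siControl and 2379.4, 2516.8 and 2450.1 in siSFPQ.

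Genes that end and degrade such transcripts changed in both directions. Of 31 decay and termination factors, among them exosome, NEXT, PAXT, Integrator and cleavage factors, 13 rose and 7 fell (adjusted p under 0.05), where 30.1% of all genes at 1 CPM or more rose and 34.5% fell. By edgeR 0 were called, with 14 rises and 7 falls at an unadjusted p under 0.05, and DESeq2 called 0 too. Their log2 fold changes ran from -1.08 to 0.51 with a median of 0.07. INTS9, a subunit of the Integrator cleavage module, was the lowest (-1.08 ± 0.07, SE, edgeR adjusted p = 5e-15). ZCCHC8, a scaffold of the NEXT complex, was the highest (0.51), followed by the exosome core subunits EXOSC4 (0.45) and EXOSC5 (0.42).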

How the data were processed

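The authors checked reads with FastQC, aligned and counted them with STAR 2.7.9a against the Ensembl GRCh38 genome and annotation, and deposited raw counts of reads per gene. Libraries came from a stranded mRNA kit, but the strand setting of the counting is not given in the sources used here. Conditions came from the sample labels, and 0 columns were left unused. The members, lists and tests were chosen with earlier results of these data known.

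Identifiers were matched to GENCODE release 44 for 99.67% of genes, which gave names, classes, spans (start to end, introns included), exon lengths and the distance to the nearest protein-coding gene on either strand. Of 60664 genes, the 29022 with at least 10 counts over the 6 libraries were fitted with edgeR 4.0.16 (TMM, quasi-likelihood test, R 4.3.3), with Benjamini-Hochberg adjustment over all of them, and the fold change limit of 1.5 on the log2 scale follows the study's methods. Normalized counts and CPM use TMM effective library sizes, and library medians use log2 of the normalized count plus 0.5. Standard errors come from the test statistic. Counts are of reads, not molecules. No set test was run.

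The text names the 8 largest rises and falls called at 1 CPM or more without overlap between conditions, the 6 most abundant per kb of exon, the 4 longest at 1 CPM or more, up to 3 rises and falls of the listed tumour genes, called genes with a coding gene within 5 kb, and the 3 largest bounds each way. Other genes called at 1 CPM or more, and some neighbours, were named after their values were seen. Promoter windows come from the RefSeq table of GRCh38.p14. Repeat content of start sites was planned but not run, since the genome sequence used here carries no repeat mask. Copies of the named genes were searched with blastn in GENCODE transcripts.

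Alternatives were edgeR's filterByExpr or no filter, RLE factors or library size alone, DESeq2 1.42.0, the replicate number as a block, each library left out, other limits of fold change, span, distance and level, and LINC genes that overlap no other gene. The fits were tested on simulated counts. No 2 replicate libraries agreed within counting error (chi-square over degrees of freedom, 3.77 to 5.49).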

Additional observations from a re-analysis of the deposited data

How the results depend on the processing

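Without LINC genes that overlap another annotated gene, 396 remained, with 32 called higher and 26 lower, and 71 that rose and 59 that fell. In these the medians were 0.124 over all levels, 0.037 at 1 CPM or more, -1.079 at 200 kb or more (3 called lower and 0 higher of 8) and -0.29 at 200 kb or more from a coding gene (7 called lower), and 4 were called higher and 3 lower at 1 CPM or more. These counts are lower in part because fewer genes were included. With filterByExpr, which left 518 LINC genes, 36 were called higher and 42 lower, 10 of the latter at 200 kb or more. At 1 CPM per kb of exon or more, 2 were called higher and 7 lower of 137. Over the 227 longest by span, 40 were called lower with a median of -0.334, and over the 227 longest by exons the median was 0.021. With distance measured between start sites, 28 were called lower at 200 kb or more.

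The median over all tested LINC genes, near 0, was 0.117 with no filter and 0.106 with library size alone, where that at 1 CPM or more was 0.072. In the fit with the replicate block it was 0.101, and 57 were called higher and 68 lower. The deviations of same-numbered libraries were weakly correlated (r = -0.0251, 0.0697 and 0.0355), where those of differently numbered libraries ran from -0.0723 to 0.0347. Whether same-numbered libraries share a culture or a preparation cannot be told from these values. DESeq2 called 55 higher and 65 lower, all of them among the edgeR calls.

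With each library left out in turn, 49 to 74 were called higher and 65 to 72 lower. The median ranged from 0.011 to 0.102 over all tested, from -0.014 to 0.043 at 1 CPM or more, from -0.727 to -0.551 at 200 kb or more and from -0.379 to -0.316 at 200 kb or more from a coding gene. Without siControl replicate 1, the library with fewest LINC genes detected, 74 were called higher and 70 lower. Of 43 named LINC genes, 38 kept their side of the threshold in all 12 refits. LINC01176, LINC01968, LINC01322, LINC02331 and LINC02073 did not in some, and none of the 43 changed sign. The cause of these shifts was not tested. Genes under 1 CPM are limited by depth.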

Other observations

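The nearest coding genes of the LINC genes at 1 CPM or more stood lowest where they lay farthest away. Their median log2 fold change was -0.13 where they overlapped (20 neighbours), -0.19 at under 5 kb (43) and -0.10 at 5 to 50 kb (73). It was -0.24 at 50 to 200 kb (51) and -0.46 at 200 kb or more (38), and over all 225 pairs it was -0.19. The next coding genes of protein-coding genes at this level also stood lower with distance. Their medians were -0.01 at 5 to 50 kb, -0.12 at 50 to 200 kb and -0.25 at 200 kb or more. Other lncRNA genes at this level, with 1275 neighbours tested, had a neighbour median of -0.06 and a rank correlation with the neighbour of 0.17 across genes.

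Among chromosomes, the LINC genes of chromosome 11 had 7 called higher and 1 lower of 45 tested, and those of chromosome 2 had 7 called higher and 13 lower of 77. Over all LINC genes tested 7.71% were called higher and 8.15% lower, and over all genes 5.54% and 4.77%. These counts include genes under 1 CPM and were looked at for all chromosomes without a test.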
